A study of Homo sapiens with 6 samples.

Results

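The genes of glycolysis and of the response to low oxygen were followed in the human prostate cancer cell line 22Rv1 after knockdown of MED12. The set held 42 genes taken by symbol: 4 transporters of glucose or lactate, 16 glycolytic enzymes, 5 regulators of glycolytic flux, 5 subunits and prolyl hydroxylases of the hypoxia-inducible factor (HIF) and 12 genes that HIF is known to induce. Of these, 40 were among the 17901 genes of the deposited expression table, and SLC2A3 and CA9 were found only in the count table of 62703 genes, at or near 0 counts. Cells received 25 pmol of a non-targeting siRNA pool (siCtrl, n = 3 libraries) or of a pool against MED12 (siMED12, n = 3), with 24 h between seeding and transfection. The medium was replaced at 6 h, and poly(A) RNA was taken on day 3 and sequenced over the full transcripts. Both groups were grown in the same medium, the labels name no exposure to low oxygen or to a drug, and the libraries represent 1 cell line. MED12, a subunit of the Mediator complex that bridges transcription factors and RNA polymerase II, had 67.8, 77.7 and 72.6 CPM with siCtrl and 23.9, 14.97 and 30.1 CPM with siMED12 (CPM, counts scaled to library size by the TMM method). The libraries labelled siMED12 therefore held the lower levels, with no overlap, and MED12 fell in the test across all genes (log2 fold change -1.66, SE 0.23, adjusted p = 0.0314 in edgeR's quasi-likelihood test; 1.52e-16 with the replicate number as a block).

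Glycolysis turns glucose into pyruvate in the cytosol. Glucose enters through carriers of the SLC2A family, hexokinases and phosphofructokinases commit it to the pathway, and lactate dehydrogenase turns pyruvate into lactate, which leaves through carriers of the SLC16A family. HIF is a dimer of an oxygen-labile alpha subunit (HIF1A or EPAS1) and the stable partner ARNT. With oxygen present, the prolyl hydroxylases EGLN1 and EGLN3 mark the alpha subunit for destruction, and when oxygen falls the dimer binds DNA at the core CGTG preceded by A or G and raises most glycolytic genes, the growth factor VEGFA and genes of pH control and mitophagy. The regulation of the alpha subunit is mostly on the protein, so that mRNA levels do not report HIF activity directly.

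The stretch of 250 bases before the annotated start of 5 genes is given here because these genes span the range of the results. Within the set, CA12 had the largest decrease of the HIF targets outside glycolysis and HK2 that of the enzymes. LDHA joins glycolysis and the HIF response, and PFKM and PFKL are isozymes that moved in opposite directions. Capitals mark ACGTG or GCGTG on either strand, and where both strands of CACGTG match, the whole of it is in capitals. The sequences are from RefSeq (GRCh38.p14) and read 5′ to 3′ on the strand of the gene. The PFKM window lies inside the gene as Gencode draws it, from 48105139 on, since RefSeq places the start further downstream.
HK2, chr2:74833877-74834126, plus strand: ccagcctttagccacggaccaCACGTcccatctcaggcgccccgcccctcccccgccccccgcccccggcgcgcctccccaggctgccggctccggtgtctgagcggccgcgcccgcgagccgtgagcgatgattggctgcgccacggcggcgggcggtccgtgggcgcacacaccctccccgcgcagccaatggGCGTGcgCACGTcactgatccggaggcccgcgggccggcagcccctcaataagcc
LDHA, chr11:18394313-18394562, plus strand: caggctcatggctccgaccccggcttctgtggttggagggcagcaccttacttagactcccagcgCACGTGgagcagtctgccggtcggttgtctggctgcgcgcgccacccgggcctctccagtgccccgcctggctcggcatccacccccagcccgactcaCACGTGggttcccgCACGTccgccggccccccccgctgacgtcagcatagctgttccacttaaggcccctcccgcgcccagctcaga
CA12, chr15:63381847-63382096, minus strand: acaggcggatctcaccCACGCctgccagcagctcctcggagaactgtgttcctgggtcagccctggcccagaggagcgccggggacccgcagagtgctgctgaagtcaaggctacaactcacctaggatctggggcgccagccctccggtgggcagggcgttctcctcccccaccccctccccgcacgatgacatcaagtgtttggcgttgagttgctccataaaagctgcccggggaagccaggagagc
PFKM, chr12:48105623-48105872, plus strand: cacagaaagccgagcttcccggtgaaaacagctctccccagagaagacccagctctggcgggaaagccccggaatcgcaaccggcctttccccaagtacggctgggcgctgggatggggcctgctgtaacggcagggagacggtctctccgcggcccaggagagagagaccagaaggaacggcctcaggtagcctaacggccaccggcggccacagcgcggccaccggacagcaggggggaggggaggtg
PFKL, chr21:44299803-44300052, plus strand: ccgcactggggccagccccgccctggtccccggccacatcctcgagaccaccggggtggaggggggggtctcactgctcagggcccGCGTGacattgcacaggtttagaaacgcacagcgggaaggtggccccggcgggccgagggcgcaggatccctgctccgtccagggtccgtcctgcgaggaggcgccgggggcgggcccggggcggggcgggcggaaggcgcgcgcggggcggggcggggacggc

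The HK2 stretch held 2 matches to ACGTG and 1 to GCGTG, which began 229, 55 and 48 bases before the start of the gene. LDHA held 5 matches to ACGTG, 4 of them the 2 strands of 2 CACGTG sites, the sequence that MYC family dimers are known to bind. CA12 and PFKL each held 1 match to GCGTG, and PFKM held none. Of the 42 genes, 35 had a promoter in the table used, and SLC16A1, VEGFA, PFKFB2, SLC2A3, HILPDA, NDRG1 and BNIP3L had no entry. ACGTG or GCGTG stood in 21 of the 34 tested genes with a promoter (61.8%), against 56.9% of the promoters of all genes tested and 43.1% of all 27305 promoters of this length. It was found in 12 of the 21 genes that were lower in siMED12 with the replicate number in the fit (57.1%) and in 9 of the 13 others (69.2%). Taken singly, ACGTG stood in 7 (33.3%) and 5 (38.5%) of them, GCGTG in 9 (42.9%) and 5 (38.5%), and CACGTG in 4 (19%) and 1 (7.69%). Of the promoters of all genes tested, 23.2% held ACGTG, 45.1% GCGTG and 8.91% CACGTG. These shares were not tested, and a match is only a description of letters within this window.

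Most of the genes had lower values in siMED12. The median log2 fold change over the 40 genes tested was -0.21, against 0.02 over all genes, and 28 of 40 (70%) were below 0, against 47.6% of all genes. In the pairs of libraries with the same replicate number the median was -0.20, -0.27 and -0.21, with 28 of 40 genes below 0 in each pair, while the median of all genes was 0.02, -0.0003 and 0.03 (log2 of CPM + 0.5). Together the 42 genes summed to 9079.1, 9761.8 and 8536.2 CPM in the siCtrl libraries and to 7574.1, 7824.3 and 7235.9 CPM in the siMED12 libraries, so that every siMED12 library lay below every siCtrl library. GAPDH made 2293 to 3447 CPM of these sums. A lower level in every cell and a loss of expressing cells cannot be told apart in such libraries.

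Few single genes passed the test with treatment alone. In edgeR's quasi-likelihood test with treatment alone, CA12 and SLC16A1 were lower (2 of 40 genes, with 0.413% of all genes called lower) and 0 were higher (0.151% of all genes). At an unadjusted p below 0.05, 15 were lower (37.5%, against 7.93% of all genes) and 2 were higher (5%, against 7.65%). Libraries of the same replicate number deviated together, and with that number as a block 25 genes were lower (62.5%, against 16.2% of all genes) and 3 were higher (7.5%, against 17.1%), namely ARNT, BNIP3L and PFKL. All siMED12 libraries lay below all siCtrl libraries for 17 genes (42.5%, against 10.9% of all genes) and above them for 4 (10%, against 11.2%). In the rest of the text, values with the block are named as such. That fit leaves 2 residual degrees of freedom per gene, against 4 without the block. Its p-values therefore lean on a spread pooled across genes, and very small ones are not a measure of the spread of a single gene. With the pair of replicate 3 left out, for example, the adjusted p of HK2 with the block fell to 2.51e-50 (edgeR).

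**Figure D1:**
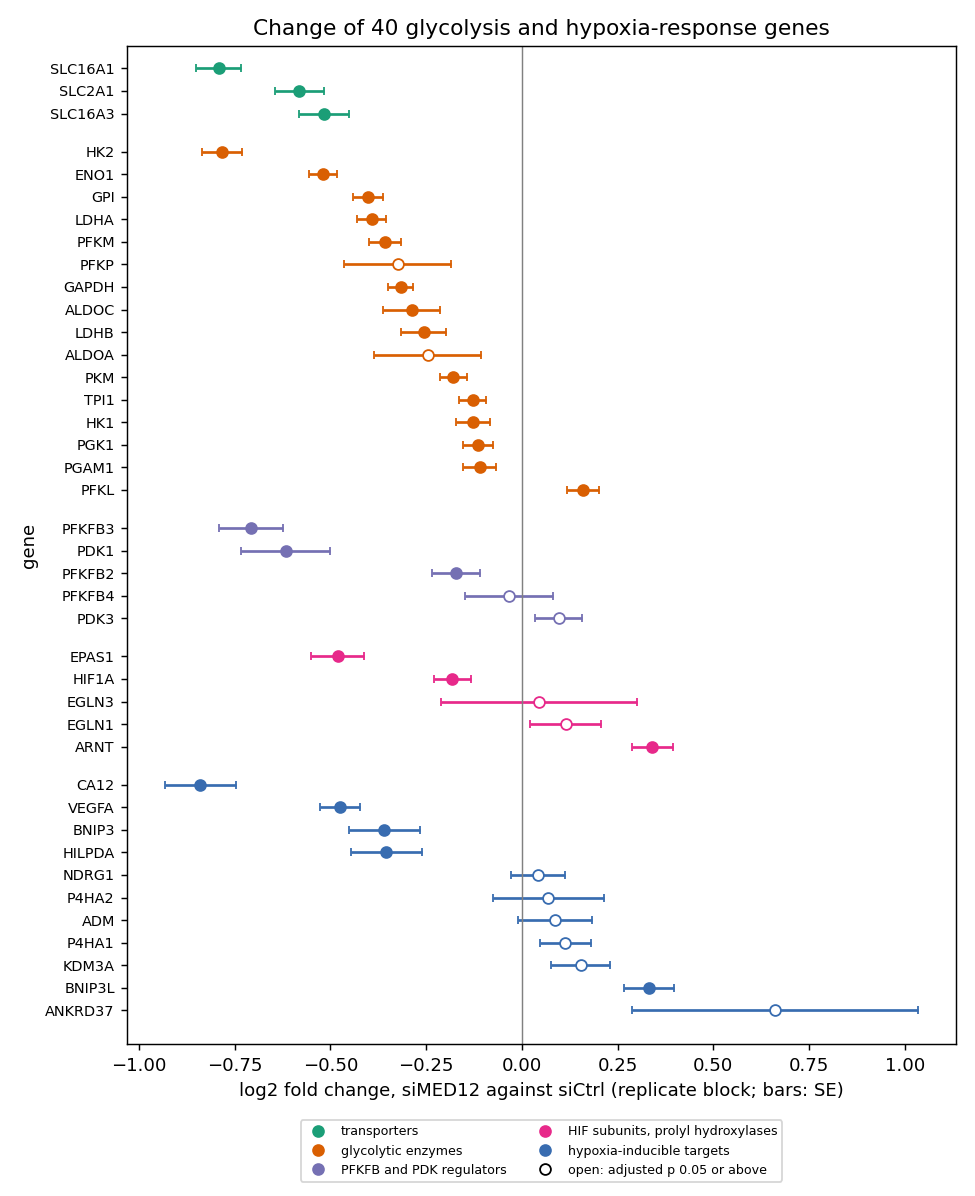
Log2 fold change (x axis) of each of the 40 genes tested (y axis, grouped by role) in siMED12 against siCtrl, with the replicate number blocked in the fit. Points are estimates, bars are standard errors, and filled points passed an adjusted p of 0.05. Of the 28 filled points, 25 lie left of 0 and 3 (PFKL, ARNT and BNIP3L) lie right of it.

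The carriers that bring glucose in and take lactate out were lower in siMED12 in the fit with the block (3 of 3 tested, with 16.2% of all genes called lower). SLC2A1 (GLUT1; ENSG00000117394.24; chromosome 1, 42925353 to 42958893, minus strand, GRCh38), the main glucose carrier of many tumor cells, had 67.3, 62.3 and 59.4 CPM with siCtrl and 42.1, 43.3 and 40.8 CPM with siMED12. The groups did not overlap, and the change within pairs was -37.6%, -30.5% and -31.3%. SLC2A1 missed the threshold without the block (log2 fold change -0.58, SE 0.10, adjusted p = 0.0523, edgeR) and passed it with the block (adjusted p = 1.79e-09). Its adjusted p without the block fell on either side of the threshold by setting. It was 0.0486 with DESeq2 size factors, 0.0374 with a filter of 1 CPM on the mean and 0.016 with no filter beyond 1 count. With the DESeq2 Wald test it was 0.00018, with limma-trend 0.0519 and with scaling by library size only 0.0754. SLC2A3, the high-affinity glucose carrier GLUT3, had 2 counts in siCtrl replicate 3 and 0 in the other libraries, and a count of 0 allows up to 3.

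SLC16A1 (MCT1; ENSG00000155380.13; chromosome 1, 112911847 to 112957593, minus strand), which carries lactate in either direction, had 74.8, 84.1 and 78.5 CPM with siCtrl and 42.6, 47.2 and 47.3 CPM with siMED12. Every siMED12 library was lower than every siCtrl library, with changes of -43.1%, -43.8% and -39.7% within pairs. SLC16A1 had a log2 fold change of -0.79 (SE 0.10, adjusted p = 0.0297, edgeR; 1e-13 with the block). When 1 library was left out at a time without the block, SLC16A1 passed in 1 of 6 fits, without siCtrl replicate 3 (adjusted p = 0.0476), and the adjusted p was 0.0562 to 0.186 in the other 5, at log2 fold changes of -0.85 to -0.75. SLC16A3 (MCT4), the lactate exporter of glycolytic cells, had 61.1, 76.98 and 74.98 CPM with siCtrl and 35.9, 55.5 and 59.1 CPM with siMED12. It was lower in each pair (-41.2%, -27.9% and -21.1%), but replicate 1 lay below the others in both groups. SLC16A3 passed only with the block (log2 fold change -0.52, adjusted p = 4.7e-08, against 0.254 without it, edgeR). Among these carriers SLC16A1 had the highest siCtrl level per length (12.5 ± 0.737 CPM per kilobase of merged exons, SD, n = 3), followed by SLC2A1 (9.53 ± 0.610) and SLC16A3 (7.69 ± 0.936).

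Of the 16 glycolytic enzymes, 15 had a log2 fold change below 0, with a median of -0.27. With all 6 libraries, none passed an adjusted p of 0.05 without the block in edgeR with its default filter. At an unadjusted p below 0.05, 7 were lower (43.8%, against 7.93% of all genes) and 0 higher (7.65% of all genes). With the block 13 were lower (81.2%, against 16.2% of all genes) and 1, PFKL, was higher (6.25%, against 17.1%). In 9 of the 16 all siMED12 libraries were below all siCtrl libraries (56.2%, against 10.9% of all genes). The spread of levels was wide, from GAPDH at 1314 ± 137 CPM per kilobase in siCtrl through TPI1 (271 ± 9.15), ENO1 (148 ± 15.1), PKM (91.9 ± 3.29) and LDHA (85.3 ± 5.26) to PFKP (1.51 ± 0.305; all SD, n = 3). The decrease was not ordered by level, since HK2 at 32.4 CPM per kilobase changed most and TPI1, second in level, changed little.

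HK2 (ENSG00000159399.10; chromosome 2, 74834127 to 74893359, plus strand), the inducible hexokinase that starts glycolysis, changed most among the enzymes, with 181, 183 and 210.5 CPM with siCtrl and 101, 94.4 and 142 CPM with siMED12. All siMED12 libraries were lower, with changes of -44%, -48.5% and -32.6% within pairs, and replicate 3 was the highest library of both groups. The log2 fold change was -0.77 (SE 0.16, adjusted p = 0.0768, edgeR) without and -0.78 (SE 0.05, adjusted p = 4.15e-15) with the block. Of the fits without the block that left 1 library out, HK2 passed only without siMED12 replicate 3 (-0.97, adjusted p = 0.0384, edgeR). HK1, the constitutive hexokinase, had 231, 257 and 203 CPM with siCtrl and 204, 219.7 and 207 CPM with siMED12, and its groups overlapped. HK1 was lower in the pairs of replicates 1 and 2 only (-11.7%, -14.4% and 1.64%), with a log2 fold change of -0.13 (adjusted p = 0.024, edgeR) with the block and an adjusted p of 0.611 without it.

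The makeup of the hexokinase pool was compared per length. HK1 made 52.3, 54.6 and 45.4% of the sum of HK1 and HK2 per kilobase in the siCtrl libraries and 63.4, 66.7 and 55.6% in the siMED12 libraries. The share was higher in each pair, by 11.1, 12 and 10.2 percentage points, from a mean of 50.8% ± 4.82 to 61.9% ± 5.69 (SD, n = 3), although the siMED12 library of replicate 3 came within 1 point of a siCtrl library. An exact two-sided permutation test over the 6 libraries gave p = 0.1, the smallest that 3 against 3 allows. It left out the pairing by replicate number, as did the tests of the other shares below.

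Phosphofructokinase, the step that commits sugar to glycolysis, is built of the subunits PFKL, PFKM and PFKP. PFKM (ENSG00000152556.17; chromosome 12, 48105139 to 48146404, plus strand) had 265, 284 and 238 CPM with siCtrl and 201, 221 and 192 CPM with siMED12, lower in each pair (-24.1%, -22.4% and -19.4%). PFKL (ENSG00000141959.17; chromosome 21, 44300051 to 44327376, plus strand) had 225, 235 and 229 CPM with siCtrl and 262, 262 and 247 CPM with siMED12, higher in each pair (16.1%, 11.1% and 8.08%). Neither pair of groups overlapped, and subunits of the same enzyme lay on opposite sides of 0.

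With the block the log2 fold change was -0.36 (SE 0.04, adjusted p = 5.95e-09, edgeR) for PFKM and 0.16 (SE 0.04, adjusted p = 0.00223) for PFKL, and without it the adjusted p was 0.145 and 0.379. PFKL also missed the threshold with the block when the pair of replicate 1 was left out (0.11, adjusted p = 0.118). Per kilobase, PFKM made 57.0% ± 1.82 of the 3 subunits in siCtrl and 48.5% ± 1.37 in siMED12, and PFKL made 40.6% ± 1.95 and 49.45% ± 1.12 (SD, n = 3), without overlap (exact two-sided permutation p = 0.1 for each, the smallest possible). PFKP, at 10.2, 14.5 and 10.6 CPM with siCtrl and 10.8, 8.48 and 8.76 CPM with siMED12, was the minor subunit and was not called (-0.32 with the block, adjusted p = 0.0707, edgeR). PFKP depended on the pairs, at -0.55 (adjusted p = 0.0119) without the pair of replicate 1 and -0.12 (adjusted p = 0.652) without that of replicate 2.

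**Figure D2:**
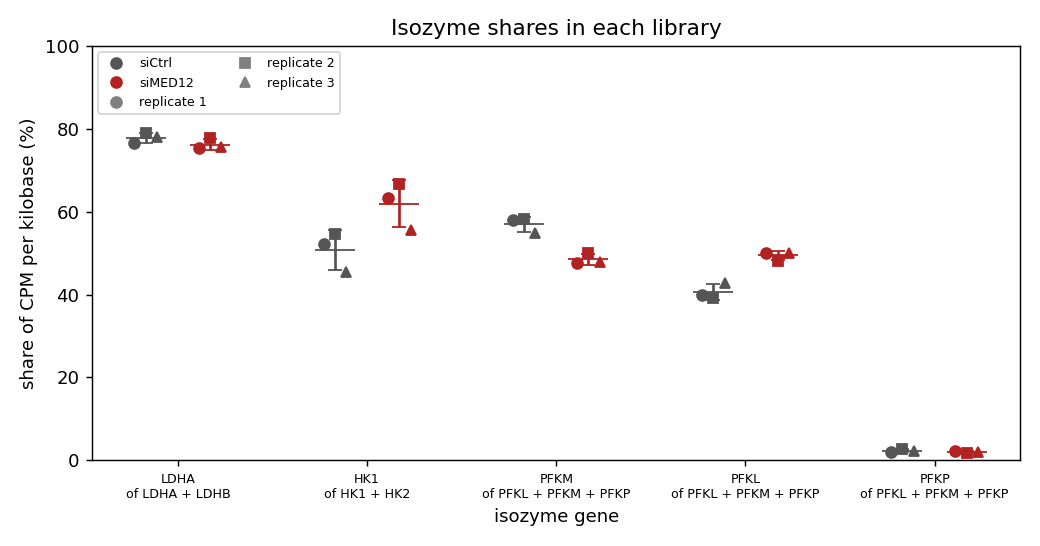
Share of each isozyme gene (x axis) in the summed level of its family, in percent of CPM per kilobase (y axis), for the 3 siCtrl (grey) and 3 siMED12 (red) libraries. Symbols mark the replicate number, and horizontal lines with bars are the mean and SD (n = 3). HK1 sits higher in siMED12 in each pair, PFKM sits lower and PFKL higher in siMED12, and LDHA lies between 75.3% and 79.1% in all libraries.

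Lactate dehydrogenase, which regenerates NAD by turning pyruvate into lactate, had both of its main subunits lower with the block. LDHA (ENSG00000134333.15; chromosome 11, 18394560 to 18408425, plus strand), the HIF-inducible subunit, had 502, 550 and 490.4 CPM with siCtrl and 392, 402 and 379.6 CPM with siMED12. No siMED12 library reached a siCtrl library, and LDHA changed by -21.9%, -26.9% and -22.6% in the pairs. For this gene the log2 fold change was -0.39 (SE 0.08, adjusted p = 0.0838, edgeR) without the block, with an adjusted p of 9.42e-11 with it.

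LDHB had 75.97, 72.1 and 68.7 CPM with siCtrl and 63.7, 57.1 and 60.6 CPM with siMED12, also without overlap, and a log2 fold change of -0.26 (adjusted p = 0.243, edgeR; 0.00056 with the block). The exons of LDHB share 997 of 2983 bases with another annotated gene on the same strand, which leaves its counts less certain. LDHA made 77.9% ± 1.25 of the sum of both per kilobase in siCtrl and 76.2% ± 1.32 in siMED12 (SD, n = 3). The share was lower in each pair, by -1.3, -1.36 and -2.33 points, but the groups overlapped (exact two-sided permutation p = 0.2, without the pairing).

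Among the enzymes between these steps, ENO1, the enolase that makes phosphoenolpyruvate, had 784, 840.1 and 684 CPM with siCtrl and 560, 565 and 483 CPM with siMED12. The groups were apart, with changes of -28.5%, -32.7% and -29.3% in the pairs. ENO1 passed with the block (log2 fold change -0.52, SE 0.04, adjusted p = 1.7e-14, against 0.0808 without it, edgeR). Without the block it also passed with no filter beyond 1 count (adjusted p = 0.00829, edgeR) and in the DESeq2 Wald test (adjusted p = 0.00315). GPI, the isomerase after hexokinase, changed by -26.9% to -22.8% in the pairs (-0.40, adjusted p = 8.61e-11 with the block, 0.109 without). GAPDH, often used as a reference for other mRNAs, had 3203, 3447 and 2797 CPM with siCtrl and 2640, 2640 and 2293 CPM with siMED12. It was lower in each pair (-17.6%, -23.4% and -18%) and without overlap, with a log2 fold change of -0.32 (adjusted p = 5.57e-10 with the block, 0.224 without, edgeR).

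The remaining enzymes moved less. PKM, the pyruvate kinase, changed by -11.8% to -11.4% in the pairs (-0.18 with the block, adjusted p = 0.000113, edgeR), the tightest agreement among the enzymes named here, and TPI1 changed by -9.97% to -7.1% (-0.13, adjusted p = 0.00461). PGK1, the first ATP-yielding enzyme, had 329, 358 and 319 CPM with siCtrl and 305, 323 and 300.5 CPM with siMED12. Its groups overlapped, and its log2 fold change of -0.12 passed with the block (adjusted p = 0.0194, edgeR), as did PGAM1 (-0.11, adjusted p = 0.0437) and ALDOC (-0.29, adjusted p = 0.00241). When libraries were scaled by their total counts alone, HK1, PGK1, PGAM1 and the regulator PFKFB2 no longer passed with the block (adjusted p = 0.111, 0.108, 0.193 and 0.0923). HK1, PGAM1 and PFKFB2 also missed the threshold with the pair of replicate 1 or 2 left out (adjusted p between 0.0632 and 0.232).

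ALDOA, the aldolase of muscle and most other tissues, had 9.58, 10.5 and 8.41 CPM with siCtrl and 8.20, 9.47 and 6.45 CPM with siMED12 and was not called (-0.25 with the block, adjusted p = 0.184, edgeR). Its exons share 1639 of 3829 bases with another gene on the same strand and 520 with a gene on the other, and that first gene had 5.71 to 8.58 CPM, so that reads of ALDOA may have been split or left uncounted. Its level is therefore uncertain, and its place below ALDOC (2.48 against 14.2 CPM per kilobase in siCtrl) was not interpreted.

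**Figure D3:**
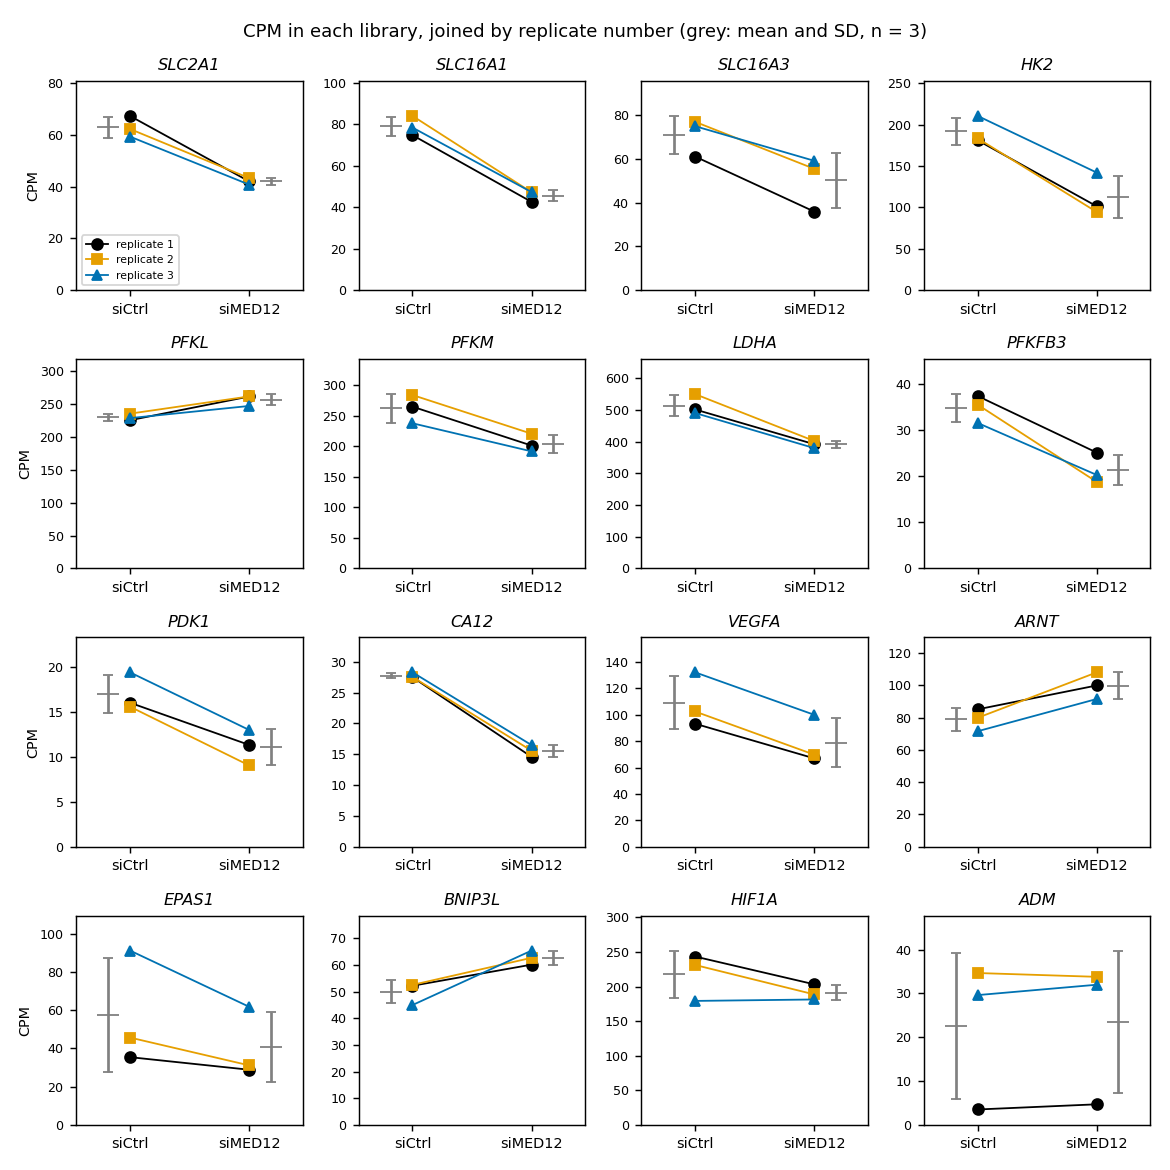
CPM (y axis, from 0) of 16 genes in the siCtrl and siMED12 libraries (x axis), with libraries of the same replicate number joined by a line and the mean and SD of each group in grey (n = 3). Lines fall in all 3 pairs for SLC2A1, SLC16A1, SLC16A3, HK2, PFKM, LDHA, PFKFB3, PDK1, CA12, VEGFA and EPAS1 and rise in all 3 for PFKL, ARNT and BNIP3L. For ADM, replicate 1 lies far below replicates 2 and 3 in both groups.

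Of the 5 regulators of flux, 3 were lower with the block (60%, against 16.2% of all genes) and 0 were higher (17.1% of all genes). Without the block 0 were called in edgeR with its default filter. At an unadjusted p below 0.05, 2 were lower (40%, against 7.93% of all genes) and 0 higher (7.65% of all genes). PFKFB enzymes set the level of fructose 2,6-bisphosphate, a strong activator of phosphofructokinase. PFKFB3 (ENSG00000170525.21; chromosome 10, 6144934 to 6254644, plus strand), whose kinase activity prevails, had 37.4, 35.5 and 31.6 CPM with siCtrl and 25.1, 18.8 and 20.3 CPM with siMED12. It was lower without overlap and changed by -32.9%, -47.2% and -35.8% in the pairs, with a log2 fold change of -0.70 (SE 0.15, adjusted p = 0.0808, edgeR; 1.1e-08 with the block). PFKFB2 was lower in the pairs of replicates 1 and 2 only (-14.7%, -21.4% and 4.76%; -0.17 with the block, adjusted p = 0.0269), and PFKFB4 was not called (-0.03, SE 0.12).

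PDK1, a kinase that shuts pyruvate out of mitochondrial oxidation by inhibiting pyruvate dehydrogenase, had 16.1, 15.6 and 19.4 CPM with siCtrl and 11.3, 9.06 and 13.02 CPM with siMED12. The groups were separate, the pairs changed by -29.4%, -42% and -33%, and PDK1 passed with the block (log2 fold change -0.62, SE 0.12, adjusted p = 4.66e-05, against 0.169 without it, edgeR). Its paralog PDK3 was higher by 7.08%, 4.24% and 9.48% in the pairs and was not called (0.10 with the block, adjusted p = 0.243).

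Of the 5 HIF subunits and hydroxylases, with the block 2 were lower (40%, against 16.2% of all genes) and 1 was higher (20%, against 17.1%). HIF1A (ENSG00000100644.17; chromosome 14, 61695513 to 61748259, plus strand), the broadly expressed alpha subunit, had 243, 231 and 179 CPM with siCtrl and 203, 189 and 181 CPM with siMED12. It was lower in the pairs of replicates 1 and 2 and close to equal in replicate 3 (-16.5%, -18.4% and 1.18%), the groups overlapped, and the log2 fold change was -0.18 with the block (adjusted p = 0.00247, against 0.528 without it, edgeR). EPAS1 (HIF-2 alpha; ENSG00000116016.14; chromosome 2, 46293667 to 46386697, plus strand), the alpha subunit of a more restricted set of tissues, had 35.5, 45.7 and 91.3 CPM with siCtrl and 28.9, 31.2 and 61.8 CPM with siMED12. It was lower in each pair (-18.6%, -31.9% and -32.3%), yet the siMED12 library of replicate 3 exceeded the siCtrl libraries of replicates 1 and 2.

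EPAS1 was called with the block (-0.48, SE 0.07, adjusted p = 4.31e-07, edgeR) and not without it (-0.50, SE 0.39, adjusted p = 0.612). The value without the block rested on replicate 3, at -0.002 without siCtrl replicate 3 and -0.94 without siMED12 replicate 3, whereas with the block it was -0.58 to -0.43 with a pair left out. ARNT (ENSG00000143437.21; chromosome 1, 150809713 to 150876708, minus strand), the shared partner, had 85.1, 79.9 and 71.6 CPM with siCtrl and 99.97, 108 and 91.6 CPM with siMED12. All siMED12 libraries were above all siCtrl libraries, by 17.4%, 35.2% and 28% in the pairs. ARNT was called higher with the block (log2 fold change 0.34, SE 0.05, adjusted p = 2.93e-06, edgeR) but not without it (adjusted p = 0.175).

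The prolyl hydroxylases were not called in either direction. EGLN1 had 25.1, 24.04 and 16.2 CPM with siCtrl and 24, 29.8 and 17.3 CPM with siMED12, with replicate 3 lowest in both groups and a log2 fold change of 0.11 with the block (SE 0.09, adjusted p = 0.371, edgeR). Of its 5381 exon bases, 3004 are shared with another annotated gene on the same strand. EGLN3 had 2.44, 2.53 and 2.93 CPM with siCtrl and 2.61, 3.62 and 2.003 CPM with siMED12, with a log2 fold change of 0.04 (SE 0.26) with the block. The sign of both genes changed when some of the libraries were left out. Per length, HIF1A stood at 42.3 ± 6.62 CPM per kilobase in siCtrl, above ARNT (12.2 ± 1.06) and EPAS1 (7.89 ± 4.08), whose values overlapped within their SD, and far above EGLN1 (4.05 ± 0.902) and EGLN3 (0.357 ± 0.0351; n = 3).

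Of the 12 hypoxia-inducible targets outside glycolysis, 11 were tested, with a median log2 fold change of 0.06. With the block 4 were lower (CA12, VEGFA, BNIP3 and HILPDA; 36.4%, against 16.2% of all genes), BNIP3L was higher (9.09%, against 17.1%) and 6 were not called. Without the block, 1 was lower (0.413% of all genes were) and 0 were higher (0.151% of all genes, edgeR). At an unadjusted p below 0.05, 3 were lower (27.3%, against 7.93% of all genes) and 1 was higher (9.09%, against 7.65%).

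CA12 (ENSG00000074410.14; chromosome 15, 63321378 to 63381846, minus strand), a membrane carbonic anhydrase that helps to export acid, had the largest decrease of all 40 genes. It had 27.5, 27.5 and 28.3 CPM with siCtrl and 14.6, 15.6 and 16.5 CPM with siMED12, or 27.8 CPM ± 0.452 (SD, n = 3) against 15.5 CPM ± 0.955 (SD, n = 3). The libraries of each group were close to each other, and the pairs changed by -47.1%, -43.5% and -41.8%. CA12 had a log2 fold change of -0.84 (SE 0.12, adjusted p = 0.041, edgeR; 1.79e-09 with the block). With any 1 of the 6 libraries left out the adjusted p without the block was 0.0632 to 0.212, at log2 fold changes of -0.88 to -0.81. CA9, the related enzyme widely used as a hypoxia marker, had 0, 1 and 8 counts in the siCtrl and 0, 6 and 5 counts in the siMED12 libraries, too few to test, and 571 of its 1598 exon bases are shared with ARHGEF39 on the other strand.

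VEGFA, the growth factor of blood vessels, had 93.2, 102 and 132 CPM with siCtrl and 66.9, 69.8 and 99.96 CPM with siMED12. It was lower in each pair (-28.2%, -31.9% and -24.4%), with replicate 3 highest in both groups and overlapping groups, and passed with the block (log2 fold change -0.48, SE 0.05, adjusted p = 1.76e-09, against 0.272 without it, edgeR). HILPDA, a lipid droplet protein, changed by -15.4%, -27% and -23% in the pairs (-0.35 with the block, adjusted p = 0.0026).

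BNIP3 and BNIP3L are related receptors for the removal of mitochondria, and with the block they were called in opposite directions. BNIP3 had 23.1, 28.6 and 26.1 CPM with siCtrl and 20.1, 18.5 and 21.9 CPM with siMED12, lower in each pair (-12.8%, -35.3% and -16%), and was called with the block (-0.36, SE 0.09, adjusted p = 0.00226, edgeR), though not when the pair of replicate 2 was left out (-0.25, adjusted p = 0.0806). BNIP3L (ENSG00000104765.16; chromosome 8, 26383054 to 26505636, plus strand) had 52.2, 52.6 and 44.99 CPM with siCtrl and 60.2, 62.7 and 65.5 CPM with siMED12, with no overlap and increases of 15.2%, 19.4% and 45.5% in the pairs. BNIP3L had a log2 fold change of 0.33 with the block (SE 0.07, adjusted p = 9.79e-05, edgeR; 0.179 without it). The difference between BNIP3 and BNIP3L was not itself tested.

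The other targets were not called. NDRG1, a stress-induced protein, had 37.5, 38.5 and 45.5 CPM with siCtrl and 37.96, 42.8 and 44.1 CPM with siMED12, with a log2 fold change of 0.04 (SE 0.07) with the block. KDM3A, a histone demethylase, was higher by 14.1%, 11.2% and 8.16% in the pairs (0.15 with the block, adjusted p = 0.129, edgeR) and passed when libraries were scaled by total counts alone with the block. P4HA1 and P4HA2, collagen prolyl hydroxylases, had log2 fold changes of 0.11 and 0.07 with the block (adjusted p = 0.204 and 0.766). P4HA2 thus had groups that did not overlap without being called. ANKRD37, a small ankyrin-repeat protein, had 0.535, 1.46 and 1.04 CPM with siCtrl and 0.772, 2.16 and 1.88 CPM with siMED12. It was higher in each pair, by 44.2%, 48.7% and 81.2%, but at about 1 CPM its log2 fold change of 0.66 carried an SE of 0.37 (adjusted p = 0.18 with the block, edgeR).

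Many of the genes also differed between the replicate numbers. With treatment in the fit, 23 of 40 genes (57.5%) differed between the replicate numbers at an adjusted p below 0.05 (edgeR), against 47.1% of all genes. The median range over the numbers was 0.24 on the log2 scale, against 0.37 over all genes, while the median size of the treatment difference was 0.30, against 0.20 over all genes. The treatment difference exceeded the range over replicates in 22 of 40 genes. These are unlike measures, since the range runs from the lowest to the highest replicate number and the treatment difference lies between the groups. For 17 genes both differences passed, for 11 only the treatment, for 6 only the replicate number and for 6 neither. These counts were not taken over all genes, so they do not set the 40 genes apart from others. Whether the numbers mark cultures, days or another unit is not given in the sources used here, although the study describes a heatmap of 22Rv1 cells as corrected for batch.

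ADM, adrenomedullin, a vasodilator peptide and HIF target, showed the widest range. It had 3.51, 34.7 and 29.6 CPM with siCtrl and 4.69, 33.8 and 31.99 CPM with siMED12. Replicate 1 was low in both groups, with replicates 2 and 3 higher by 3.06 and 2.91 on the log2 scale (adjusted p = 6.37e-21, edgeR), whereas the treatment difference was 0.09 (SE 0.10, adjusted p = 0.543) with the block. Without the block the SE was 0.82.

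The next widest ranges belonged to ANKRD37 (1.46, adjusted p = 0.0295), EPAS1 (1.24, adjusted p = 6.43e-16) and EGLN1 (0.68, adjusted p = 1.16e-05, edgeR). They did not follow the same order: ADM and ANKRD37 were lowest in replicate 1, EPAS1 was highest and EGLN1 lowest in replicate 3. VEGFA, also highest in replicate 3, had a range of 0.54 (adjusted p = 4.63e-09). The percent of counts on mitochondrially encoded genes moved with the number as well, at 4.43% and 4.79% in the libraries of replicate 1, 6.31% and 6.03% in replicate 2 and 9.996% and 10.1% in replicate 3, and its part in these differences was not tested. At the other end, CA12 (0.10), SLC2A1 (0.12), BNIP3L (0.07) and PFKL (0.06) varied little with the number.

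**Figure D4:**
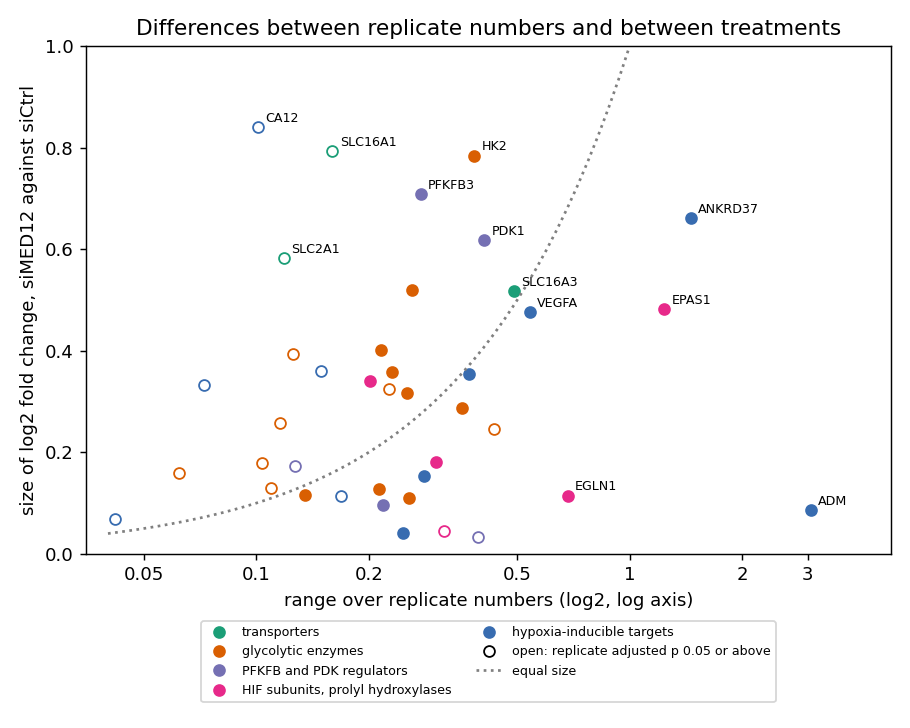
Range of each of the 40 genes over the 3 replicate numbers (x axis, log2 units on a log axis) against the size of the treatment difference (y axis, log2 units), both with the replicate number in the fit. Filled points differed between replicate numbers at an adjusted p below 0.05, and the dotted curve marks equal sizes. CA12, SLC16A1 and SLC2A1 lie far above the curve, and ADM, with a range of 3.06 and a treatment difference of 0.09, lies far below it.

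Genes of the same pathways outside the set gave a background of named genes. Among 39 further genes of glycolysis and pyruvate handling, 32 were tested, with a median log2 fold change of -0.06. None was called without the block (edgeR). At an unadjusted p below 0.05, 2 were higher (6.25%, against 7.65% of all genes) and 4 lower (12.5%, against 7.93%). With the block 2 were higher (6.25%, against 17.1% of all genes) and 8 lower (25%, against 16.2%). The higher genes were SLC2A6, a lysosomal sugar carrier (0.52, adjusted p = 0.0405), and LDHD, the D-lactate dehydrogenase (0.50, adjusted p = 0.000235). MPC1, a subunit of the mitochondrial pyruvate carrier, was among the lower genes (-0.42, adjusted p = 0.00226, edgeR with the block).

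Among 17 further regulators of HIF, 16 were tested, with a median log2 fold change of -0.01. None was called without the block (edgeR). At an unadjusted p below 0.05, 1 was higher (6.25%, against 7.65% of all genes) and 0 lower (7.93% of all genes). With the block 6 were higher (37.5%, against 17.1% of all genes) and 2 lower (12.5%, against 16.2%). The largest increases were those of ARNT2, a paralog of ARNT (0.38, adjusted p = 0.0197), and VHL, the ubiquitin ligase subunit that recognises the hydroxylated alpha subunit (0.22, adjusted p = 0.000289). The decreases were those of ELOC (-0.22, adjusted p = 0.00984) and ELOB (-0.18, adjusted p = 0.00471), the elongins that join VHL to its ligase (edgeR with the block).

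Among 41 further hypoxia-inducible genes, 34 were tested, with a median log2 fold change of -0.20. STC1 and STC2 were lower without the block (0.413% of all genes were) and 0 were higher (0.151% of all genes). At an unadjusted p below 0.05, 4 were higher (11.8%, against 7.65% of all genes) and 12 lower (35.3%, against 7.93%). With the block 6 were higher (17.6%, against 17.1% of all genes) and 16 lower (47.1%, against 16.2%). STC1 and STC2 encode stanniocalcins, secreted glycoproteins of calcium and phosphate balance. STC1 had 9.28, 14.4 and 11.5 CPM with siCtrl and 3.56, 3.33 and 4.44 CPM with siMED12 (log2 fold change -1.63, SE 0.23, adjusted p = 0.0393, edgeR). STC2 had 14.1, 13.2 and 19.02 CPM with siCtrl and 4.99, 4.85 and 6.45 CPM with siMED12 (-1.51, SE 0.22, adjusted p = 0.0385). Both were without overlap and larger in size than any difference among the 40 genes of the set. With 1 library left out and no block, 0 of the 34 genes were lower, except for 1 without siMED12 replicate 3.

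With the block, CXCR4, a chemokine receptor, had the largest decrease (-2.08, SE 0.56, adjusted p = 0.00348, edgeR) at only 1.102 CPM in siCtrl and 0.262 CPM in siMED12. The largest increases were those of PPP1R3B, a glycogen-targeting subunit of protein phosphatase 1 (0.80, adjusted p = 4.01e-06), and INSIG2, a brake on sterol synthesis (0.43, adjusted p = 0.0187).

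The libraries held 16136699 to 17012788 counts on annotated genes, with no gap in depth between the groups. Markers of prostate luminal epithelium (HOXB13, KLK2, KLK3, KRT8, KRT18 and EPCAM) were all present, and 5 of the 6 differed without overlap. Of all genes, 10.9% were lower and 11.2% higher without overlap. KLK2 went from 77.4 to 27.8 CPM (log2 fold change -1.50 with the block), KLK3 from 36.95 to 15.1 CPM (log2 fold change -1.30 with the block), KRT8 from 822 to 615 CPM (log2 fold change -0.42 with the block) and KRT18 from 524 to 414 CPM (log2 fold change -0.34 with the block), all lower with the block and none called without it, and EPCAM was not called. HOXB13 went from 261 to 341 CPM (log2 fold change 0.39 with the block), higher with the block only. With the block, 16.2% of all genes were called lower and 17.1% higher. The part of these markers in the decrease of the glycolytic genes was not tested. Of 13 markers of immune, endothelial, stromal, muscle and basal cells, COL1A1 and LUM passed the filter on low counts, at 14.9 to 27.4 CPM and 9.70 to 17.9 CPM, with overlapping groups. CD3E, CDH5, DES, KRT5 and KRT14 were at 0 counts in all 6 libraries, and the other 6 markers had 14 counts or fewer in each.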

How the data were processed

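Full-transcriptome RNA-seq of 22Rv1 cells (3 siCtrl and 3 siMED12 libraries) was analysed from the deposited raw read counts per gene, with groups and numbers as labelled. Per the labels and the methods, libraries were strand-specific and the authors counted with Rsubread against GRCh38.p13 and Gencode release 43. The Rsubread version, multimapping and use of strand are not given in the sources used here. The authors' deposited log2 CPM values (17901 genes, decimal commas) were recomputed from the counts (TMM, prior count of 2) to within 4.96e-09. That the samples of a group were separate cultures rests on a general remark on biological replicates, and p-values may measure technical spread.

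The whole count table was tested with edgeR 4.0.16 in R 4.3.3 (filterByExpr, TMM, quasi-likelihood F-test, two-sided, Benjamini-Hochberg over 17901 genes, threshold 0.05), with treatment alone, since the description of the differential test states no block. The study describes a heatmap of 22Rv1 cells as batch-corrected, without naming the batch. Deviations from group means correlated at 0.532, 0.373 and 0.643 between libraries of the same replicate number and at -0.46 to -0.0233 between others, so the numbers were taken to pair the libraries. The fit with that block is given where it changes a call (common dispersion 0.0368 without and 0.00228 with it). No replicates were duplicates (chi-square per degree of freedom 10.3 to 40.7). CPM are counts over TMM-scaled library sizes, and levels between genes are per kilobase of merged exons (Gencode 44, GRCh38). Merged exons join all annotated transcripts of a gene, so shares and rankings between genes depend on that annotation. By that annotation 27 of the 42 genes share exon bases with another gene.

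The 42 genes, other lists, markers and tests were chosen with earlier results of these data known. CPM in every library was to be given for 12 fixed genes, the 6 largest changes each way called with the block (3 were higher), those called without it and the 4 widest ranges over replicate numbers, and other genes are named for their role. From each further list, genes called without the block and the 2 largest changes each way with it are named. A result that this rule would name is not reported here. Alternatives were other scalings, filters, DESeq2 1.42.0, limma-trend 3.58.1, a newer edgeR method, the block and leaving out libraries. The procedure was tested on counts simulated from the fit with the block. That test therefore cannot decide between the fits with and without it.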

Additional observations from a re-analysis of the deposited data

How the results depend on the processing

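The counts of called genes depended on the replicate block far more than on scaling or filters. Of the 40 genes, 0 were higher and 2 lower without the block (edgeR), 6 lower with no filter beyond 1 count and 9 lower with the DESeq2 Wald test. The 6 were CA12, SLC16A1, SLC2A1, HK2, ENO1 and PFKFB3, and the 9 held GPI, LDHA and PDK1 as well. With the replicate block 3 were higher and 25 lower, as with DESeq2 size factors and, in an alternative chosen after seeing the data, with edgeR's newer quasi-likelihood method. The block gave 4 higher and 21 lower with library size only and 3 higher and 22 lower with the DESeq2 Wald test. Over all fits that left out 1 library (no block) or 1 pair (with the block), the genes higher numbered 0 to 3 and those lower 0 to 25. Without siCtrl replicate 1 or 2 or siMED12 replicate 1 or 2 (no block) no gene at all was called (2017 to 2313 had an unadjusted p below 0.05). Without replicate 3 of either group 1 of the 40 genes was lower, SLC16A1 without siCtrl replicate 3 and HK2 without siMED12 replicate 3. Fewer libraries enter those fits. For the other lists, the 3 counts with the block that follow are with TMM, library size only and the DESeq2 Wald test, DESeq2 size factors and the newer method giving the same counts as TMM. Other glycolysis genes gave 2, 3 and 1 higher and 8, 7 and 7 lower (0 and 0 without the block; 0 to 1 and 0 to 8 with libraries left out). HIF regulators gave 6, 6 and 4 higher and 2, 2 and 1 lower (0 and 0; 0 to 5 and 0 to 3). Other hypoxia-inducible genes gave 6, 6 and 4 higher and 16, 15 and 13 lower (0 and 2, with 5 lower by DESeq2 without the block; 0 to 5 and 0 to 16). The median log2 fold change of the 40 genes, -0.21, was -0.17 with library size only, with or without the block, where the median of all genes moved from 0.02 to 0.06, -0.25 to -0.15 with 1 library left out and -0.27 to -0.22 with a pair left out. Between replicate numbers, 23 of the 40 genes differed in edgeR and 14 of the 40 in the DESeq2 likelihood ratio test. The genes that changed sign were never called: PFKFB4 (0.013 with library size only and 0.0083 with the block as well; -0.20 to 0.058 with 1 library left out, 0.026 at most with a pair left out), EGLN1 (-0.10 to 0.30 with 1 library left out, -0.020 without the replicate 2 pair), EGLN3 (-0.21 to 0.25; -0.24 to 0.32 over pairs), NDRG1 (-0.035 to 0.13; -0.041 without the replicate 2 pair) and ADM (-0.47 to 0.53). Of 840 values of single genes under alternatives, 601 kept their direction and side of the threshold, 209 gained a call, 11 lost one and 19 changed sign; the cause was not tested. Depth limited SLC2A3, CA9, EGLN3 and ANKRD37, all at a mean of under 3 CPM.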
